A study of Rattus norvegicus with 19 samples.

Results

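Lens crystallins and lens fibre genes were followed in the retinas of 19 male Sprague-Dawley rats, each measured on 1 Illumina RatRef-12 array. They comprised 9 genes chosen by name (Lim2, Bfsp1, Gja3, Cryba1, Crygc, Mip, Cryaa, Crybb2 and Bfsp2). The annotation used here pairs 6 of the 9 with a probe, 1 probe each, out of 12978 genes named on the array. Cryaa, Crybb2 and Bfsp2 were not analysed here. STZ + insulin rats (n = 7) were made diabetic with streptozotocin at 65 mg/kg and carried insulin pellets of 26 mg from week 6. STZ rats (n = 5) received the same streptozotocin and no insulin, and Control rats (n = 7) were not diabetic. All retinas were collected 3 months after injection. The arrays were spread over 2 BeadChips (slides of 12 arrays at most). BeadChip 1 held 4 STZ + insulin, 2 STZ and 3 Control arrays while BeadChip 2 held 3, 3 and 4. In the study's methods the lens and vitreous were removed at dissection and the retina was excised together with the pigment epithelium. They also state that some diabetic and insulin-treated arrays were left out for poor quality, and those arrays were not analysed here. The methods give 1 array per animal, so p values measure the spread between animals.

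The lens is built of elongated fibre cells that lose their organelles and fill with crystallins, the soluble proteins that give the lens its refractive power. Alpha crystallins are small heat shock proteins, and beta and gamma crystallins form a family of compact structural proteins. Fibre cells also carry a lens aquaporin, gap junctions, a tetraspan membrane protein and a beaded filament particular to them. Some crystallins, among them beta crystallin A3/A1 and alpha B crystallin, are also known from retinal glia, neurons and pigment epithelium. In a bulk sample such as a whole retina, fewer cells of a type and less RNA per cell cannot be told apart. Transcripts of retinal cells and of lens tissue carried over at dissection cannot be told apart either, and carry-over was not tested.

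Signals are the authors' average-normalized bead intensities, on a linear scale after background subtraction, and differences are on the log2 scale with signals under 10 set to 10. The mean non-normalized signal lay between 307 and 475 per array, and 11239 to 11824 of 22517 probes had a detection p under 0.05. Tests were run on the 10718 probes detected in this sense throughout 1 or more of the groups. The number of arrays limits the precision. As a check of the tissue, 17 of 20 listed photoreceptor genes had a probe and their summed signal was 94576 to 123667 in STZ + insulin, 109470 to 124419 in STZ and 98704 to 108909 in Control arrays. STZ replicates 2 and 3 had the lowest array weights in the fit (0.34 and 0.336). Without them 0.569% of tested probes were called in STZ against Control (25 higher and 36 lower), 4.81% in STZ + insulin against STZ (284 and 232) and 0.00933% in STZ + insulin against Control, against 2.79%, 10.4% and 0.00933% with all arrays.

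The promoters of the measured genes are shown first because Maf, the lens transcription factor whose recognition sequence was searched in them, was itself on the array. Of the 6 measured genes, 4 held TGCTGA in a window of 250 bases, on either strand. TGCTGA is the core of 1 arm of a Maf recognition element. The window lay before an annotated start, which was not always the outer end of the gene. Among 27457 rat genes with a window of that length (RefSeq, build GRCr8), 15.2% held it. Over all 9 genes the count was 5, with Cryaa. The capitals mark that match in the windows of Lim2 (chr1:102973938-102974187, + strand), Bfsp1 (chr3:151682838-151683087, - strand), Cryba1 (chr10:63112818-63113067, - strand) and Crygc (chr9:73947368-73947617, - strand).
Lim2: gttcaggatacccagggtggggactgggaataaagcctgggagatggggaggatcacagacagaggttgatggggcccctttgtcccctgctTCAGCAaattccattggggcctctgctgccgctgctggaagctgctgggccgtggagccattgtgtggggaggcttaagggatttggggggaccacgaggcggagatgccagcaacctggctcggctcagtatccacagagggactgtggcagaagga
Bfsp1: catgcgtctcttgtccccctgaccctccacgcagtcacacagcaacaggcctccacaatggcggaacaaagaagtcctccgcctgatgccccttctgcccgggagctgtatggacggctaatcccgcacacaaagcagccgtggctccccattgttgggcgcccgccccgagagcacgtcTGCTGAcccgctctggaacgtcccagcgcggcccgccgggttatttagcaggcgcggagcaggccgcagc
Cryba1: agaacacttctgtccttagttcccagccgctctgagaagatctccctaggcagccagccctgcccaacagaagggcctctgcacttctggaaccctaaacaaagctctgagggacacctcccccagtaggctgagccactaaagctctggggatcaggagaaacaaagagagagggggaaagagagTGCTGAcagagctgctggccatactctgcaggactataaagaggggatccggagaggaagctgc
Crygc: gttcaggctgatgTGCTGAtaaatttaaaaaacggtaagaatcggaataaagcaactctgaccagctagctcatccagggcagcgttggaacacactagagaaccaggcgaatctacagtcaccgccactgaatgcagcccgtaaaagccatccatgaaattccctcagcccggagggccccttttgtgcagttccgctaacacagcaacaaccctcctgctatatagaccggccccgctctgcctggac

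Counted back from the end of the window, the first base of the match lay at -64 in Cryba1, -70 in Bfsp1, -158 in Lim2 and -237 in Crygc. The window of Bfsp1 lay inside the annotated gene (chr3:151648588-151706153). That of Mip (chr7:1231655-1231904) also lay inside its gene (chr7:1228089-1237707), and that of Cryba1 reached into its gene (chr10:63106465-63113020). For Bfsp1 and Mip the window is thus not the sequence before the outer end of the gene. The SOX core ACAATGG, searched on both strands, was in the windows of Lim2 and Bfsp1 (3.15% of all windows), and TATAAA in those of Cryba1 and Mip (13.1%). The heat shock element GAANNTTC was in none of the member windows (7.02% of all windows). No matches of different motifs overlapped in these windows. Such a match says only that these letters stand in the window.

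Among the fibre membrane and junction genes, Lim2, which encodes a tetraspan protein of lens fibre membranes, had a lowest, median and highest signal of 10.4, 41.4 and 108 in STZ + insulin arrays. In the 5 STZ arrays it had signals of 1372, 477, 119, 2481 and 1414. In Control arrays the lowest, median and highest signals were 23.9, 805 and 1204. The highest STZ + insulin array thus stood below the lowest STZ array, while the STZ and Control ranges overlapped. The mean log2 signal was 5.14 ± 1.18 in STZ + insulin, 9.59 ± 1.73 in STZ and 8.26 ± 2.38 in Control retinas (SD, n = 7, 5 and 7). Lim2 was detected on 5 of 7 STZ + insulin arrays, with signals of 10.4 and 16.6 on the other 2, on all STZ arrays and on all Control arrays, and was tested through the STZ and Control arrays.

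Gja3 encodes a connexin of the gap junctions between fibre cells. It had a lowest, median and highest signal of 7.1, 9.59 and 18.5 in STZ + insulin arrays. The STZ arrays gave 145, 77.0, 22, 310.2 and 154. In Control arrays these signals were 8.53, 138 and 193, so that STZ + insulin lay below STZ without overlap. It had a detection p under 0.05 on 1 of 7 STZ + insulin, 5 of 5 STZ and 5 of 7 Control arrays, and was tested only because STZ arrays detected it. For 5 arrays the signal was under 10.

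Mip, the aquaporin that is the main membrane protein of lens fibres, covered the widest range of these genes. Its lowest, median and highest signals were -0.45, 9.63 and 81.8 in STZ + insulin arrays. The STZ arrays gave 1019.7, 224, 16, 2320 and 113. Control arrays had 21, 101 and 2498, and all 3 groups overlapped. Mip was detected on 2 of 7 STZ + insulin, 4 of 5 STZ and 7 of 7 Control arrays, and it was tested only because the Control arrays detected it.

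Bfsp1 encodes filensin, a subunit of the beaded filament that forms the fibre cell cytoskeleton. Its lowest, median and highest signals were 47.3, 150.1 and 560.3 in STZ + insulin arrays. In STZ arrays the signals were 2043, 343, 314, 4350.2 and 3785. In Control arrays they were 69.3, 501 and 1173, so that 3 of 5 STZ arrays stood above every Control array. One STZ + insulin array, replicate 3, reached into the STZ range. The gene was detected on all 19 arrays.

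Of the crystallins, Cryba1 encodes beta crystallin A3/A1, a soluble structural protein. Its lowest, median and highest signals were 449, 3409 and 4592 in STZ + insulin arrays. The 5 STZ arrays had 16189, 10535, 4269, 18245 and 6628. In Control arrays the signals were 1893, 14994 and 18951. Only STZ replicate 3 stood within the STZ + insulin range, together with Control replicates 1 and 3. Crygc, a gamma crystallin made in fibre cells, had 113, 454 and 2319 in STZ + insulin arrays. In STZ arrays its signals were 4933, 1339.7, 987, 11495 and 7136. Control arrays had 183, 976 and 5739, and the groups overlapped. Both crystallins were detected on every array.

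**Figure D1:**
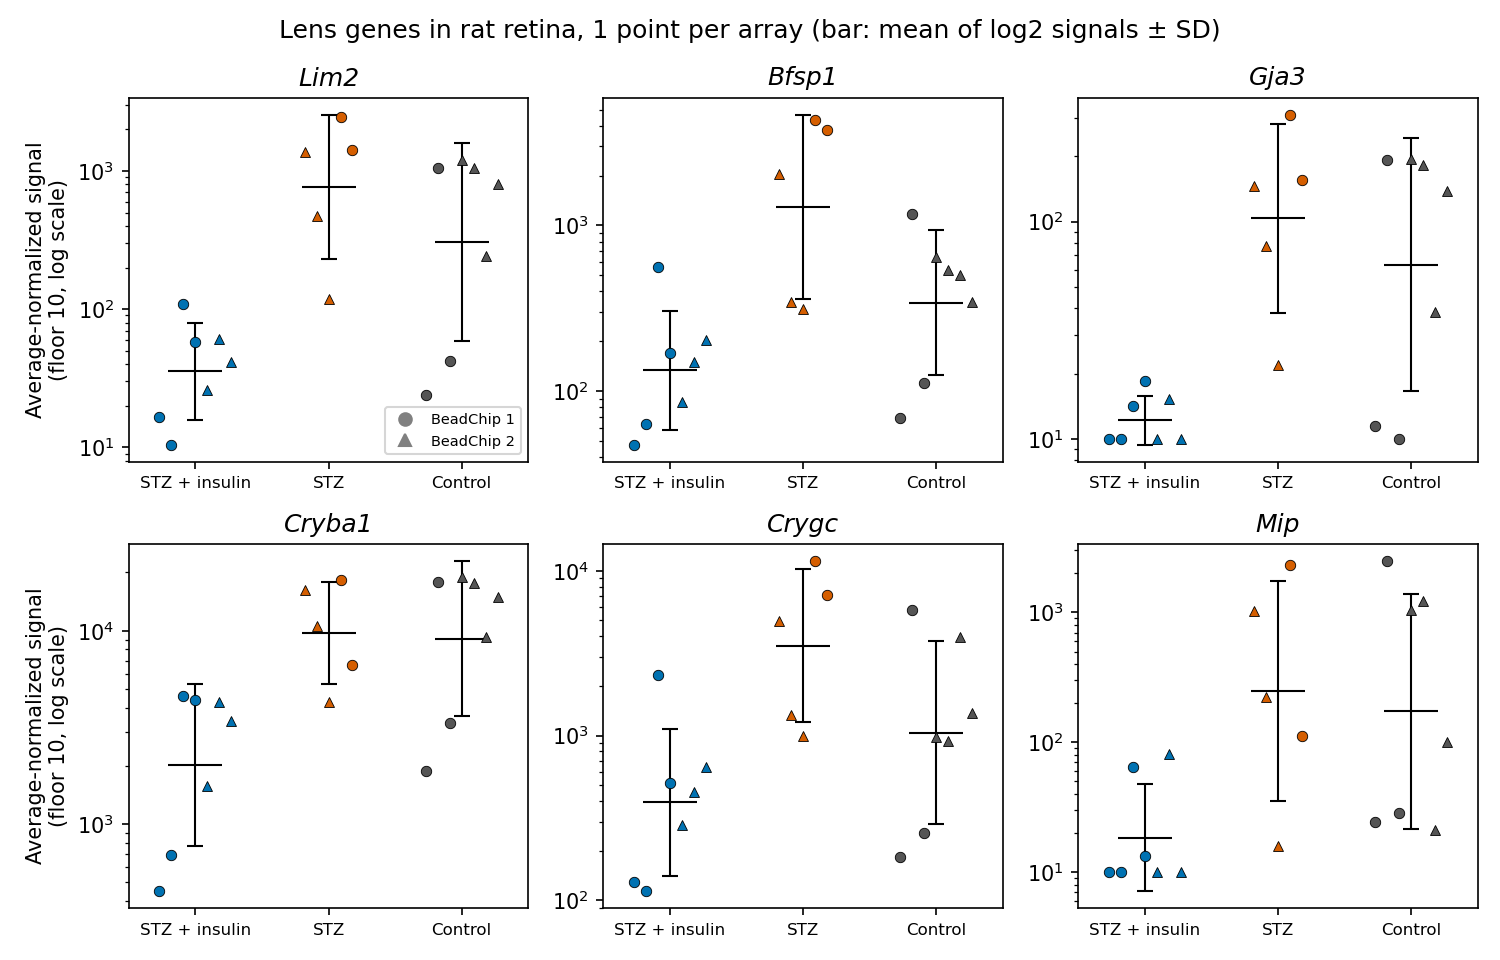
Average-normalized signal (log axis, values under 10 drawn at 10) of the 6 measured lens genes in STZ + insulin (n = 7), STZ (n = 5) and Control (n = 7) retinas, 1 point per array with its BeadChip as the symbol, and bars for the mean of the log2 signals ± SD. For Lim2 and Gja3 the STZ + insulin arrays lie below all STZ arrays, and Control replicates 1 and 3 lie far below the other Control arrays in most panels.

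The spread of these genes between animals of 1 group was large. The residual SD within groups lay between 1.26 (Cryba1) and 2.46 (Mip) on the log2 scale, against a median of 0.203 and a 99th percentile of 0.877 over the 10718 tested probes. Each of the 6 genes varied more than at least 99.6% of tested probes.

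The first comparison asked whether lens transcripts differed with diabetes. Mean log2 signals of all 6 genes were higher in STZ than in Control retinas, by 1.92 for Bfsp1 (SE 0.79), 1.76 for Crygc (SE 0.88), 1.33 for Lim2 (SE 0.99), 0.70 for Gja3 (SE 0.75), 0.52 for Mip (SE 1.32) and 0.097 for Cryba1 (SE 0.68). None passed the test (limma, Benjamini-Hochberg over all tested probes, adjusted p between 0.172 for Bfsp1 and 0.949 for Cryba1), where 2.79% of all tested probes were called. That percentage was made up of 95 higher and 204 lower probes, a split of 186 and 139 after quantile normalization and 178 and 138 after neqc. At the threshold of the study's methods, an unadjusted p under 0.05 with more than a 1.2-fold change, only Bfsp1 was higher in limma, where 4.15% of probes were, and no gene was by the methods' t-test. Without STZ replicates 2 and 3, 3 of the 6 genes passed that threshold, where 387 of 10718 tested probes were higher. None of the 6 then passed the adjusted threshold, and the median difference was 2.17. The median over the 6 genes was 1.02, beside -0.07 over all tested probes.

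The difference of STZ from Control was higher on BeadChip 1 than on BeadChip 2 for all 6 genes, a contrast that did not pass the test after adjustment. On BeadChip 1, which held 2 STZ and 3 Control arrays, it was 4.20 for Lim2, 4.28 for Bfsp1, 2.96 for Gja3, 1.19 for Cryba1, 3.81 for Crygc and 2.09 for Mip. On BeadChip 2 it was -0.72 for Lim2, 0.29 for Bfsp1, -0.90 for Gja3, -0.71 for Cryba1, 0.33 for Crygc and -0.57 for Mip. The BeadChip 1 Control arrays include replicates 1 and 3, which had the lowest signals of their group for 5 of the 6 genes. The test of the difference between BeadChips gave an unadjusted p between 0.0104 (Gja3) and 0.363 (Mip) in limma, under 0.05 for 3 of the 6 genes (5.29% of tested probes), and no gene passed after adjustment (adjusted p 0.913 or more, where 0.0187% of tested probes passed). With BeadChip as a block no gene passed either.

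The second comparison set STZ + insulin against STZ retinas, and whether insulin caused a difference was not tested. Lim2 fell by 4.45 on the log2 scale in STZ + insulin against STZ retinas (21.8-fold lower, SE 0.99, adjusted p = 0.0119), a value that includes its 2 undetected STZ + insulin arrays at their measured signals. Bfsp1 fell by 3.28 (9.69-fold lower, SE 0.79, adjusted p = 0.0164). Both the beaded filament gene and the fibre membrane gene were below the STZ mean on 7 of 7 STZ + insulin arrays. Gja3 was lower by a log2 difference of -3.08 (SE 0.75, adjusted p = 0.0169), on a scale that understates a change of signals near the floor. Crygc fell by 3.16 (8.94-fold lower, SE 0.88, adjusted p = 0.0291). Cryba1 fell by 2.26 (4.8-fold lower, SE 0.68, adjusted p = 0.0396). Mip, with a difference of -3.76 (SE 1.32), did not pass the test (adjusted p = 0.073).

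In all, 5 of the 6 measured genes were called lower in limma, where 3.93% of all tested probes were called lower and 10.4% in either direction. All 6 passed the unadjusted threshold of the study's methods, where 7.65% of probes did in that direction. Since Gja3 was tested only through STZ arrays, Lim2 only through STZ and Control arrays and Mip only through Control arrays, which detected them throughout, the count over the 6 is a description. Bfsp1, Cryba1 and Crygc, detected on all 19 arrays, were called without that condition. The signals of Lim2 and Gja3 did not overlap between STZ + insulin and STZ arrays, as was the case with 1.52% of tested probes in that direction. The median difference was -3.22, beside 0.06 over all tested probes. On BeadChip 1 the differences were between -2.80 (Cryba1) and -5.86 (Lim2), and on BeadChip 2 between -1.67 (Cryba1) and -3.41 (Lim2), so that all 6 genes were lower on both. No gene passed within 1 BeadChip alone, and with BeadChip as a block the same 5 passed (adjusted p from 0.0157 for Lim2 to 0.0482 for Cryba1). The count was 3 without STZ replicate 1 or 4 or without STZ + insulin replicate 1, 2 or 5, each of which took out Cryba1 and Crygc, and 6 without STZ replicate 3. It was 4 without STZ replicates 2 and 3 together, when Cryba1 was lost (adjusted p = 0.0683 in limma).

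Against Control retinas, STZ + insulin signals were also lower, but no gene passed the test. The log2 differences were -3.24 for Mip (SE 1.2), -3.12 for Lim2 (SE 0.90), -2.38 for Gja3 (SE 0.69), -2.17 for Cryba1 (SE 0.62), -1.40 for Crygc (SE 0.80) and -1.36 for Bfsp1 (SE 0.72), and adjusted p in limma lay between 0.229 (Lim2, Gja3 and Cryba1) and 0.674 (Crygc). Only 0.00933% of tested probes, 1 probe, was called in this comparison. At the threshold of the study's methods 4 genes were lower (Lim2, Gja3, Cryba1 and Mip), where 4.68% of probes were. By the methods' t-test 4 were also lower, where 453 of 10718 tested probes were. With array weights, Lim2, Gja3 and Cryba1 passed (adjusted p = 0.047 for each in limma), where 84 of 10718 tested probes were called lower. Mip was tested only through Control arrays, Lim2 only through STZ and Control arrays and Gja3 only through STZ arrays. These counts against Control are therefore descriptions. Cryba1, detected on every array, was tested without that condition. The order of the group means was STZ, then Control, then STZ + insulin for all 6 genes, and the neighbours STZ and Control, like Control and STZ + insulin, did not differ by this test. Each pair of comparisons shares 1 group of arrays.

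**Figure D2:**
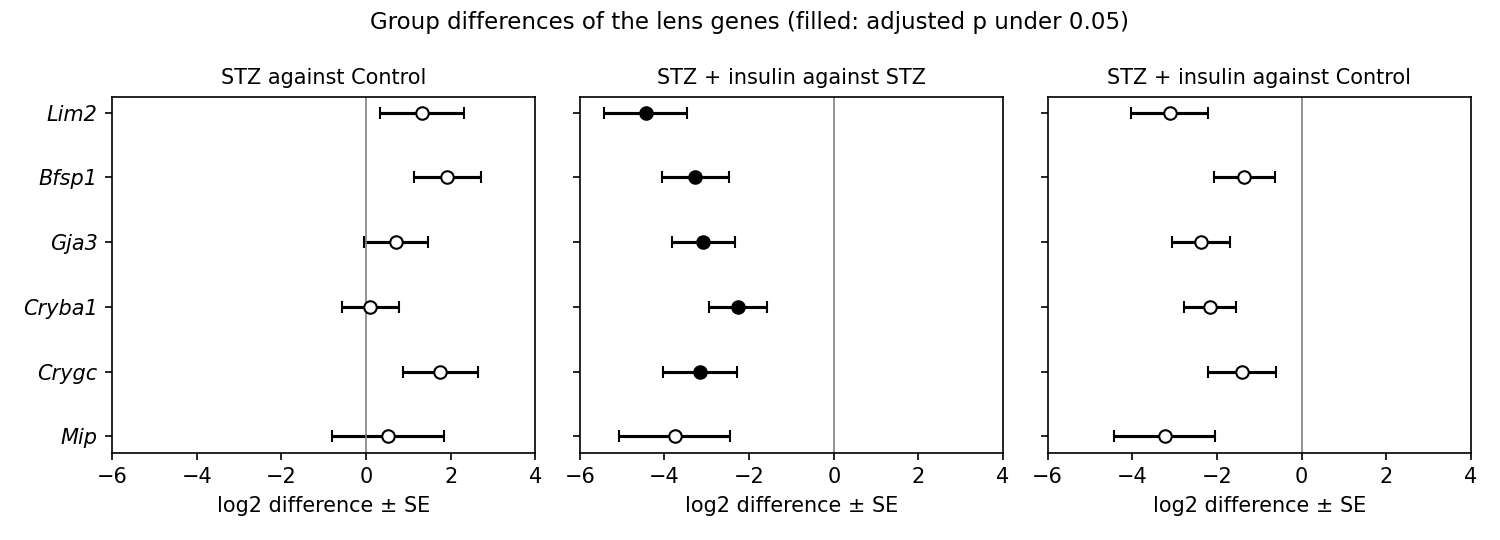
log2 difference ± SE (limma) of the 6 lens genes in the 3 comparisons, with filled points for an adjusted p under 0.05. Of the 18 points only 5 are filled, those of Lim2, Bfsp1, Gja3, Cryba1 and Crygc in STZ + insulin against STZ.

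**Figure D3:**
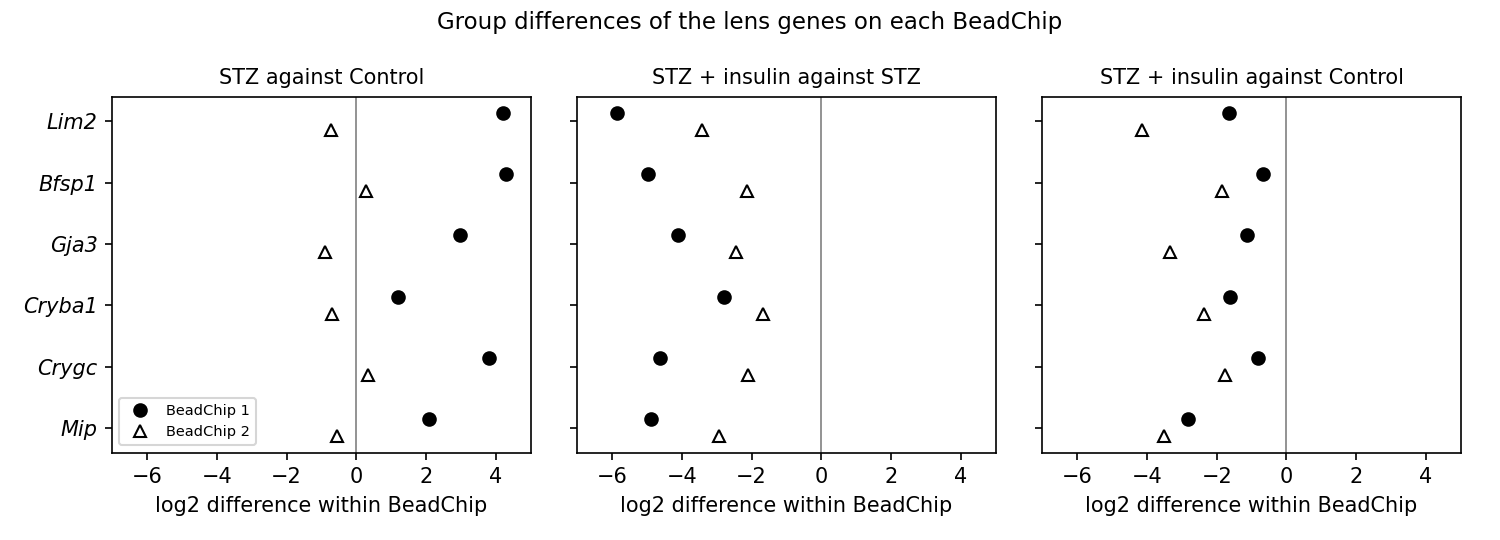
log2 difference of the 6 lens genes between groups within BeadChip 1 (filled circles) and BeadChip 2 (open triangles). In STZ against Control the circles lie at 1.19 to 4.28 and the triangles at -0.90 to 0.33, while in STZ + insulin against STZ every point is below 0.

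The 6 genes varied together from animal to animal. Over the 19 arrays Pearson's r was 0.678 to 0.971 for the 15 pairs (median 0.863), and Spearman's rho 0.684 to 0.947 (permutation test, two-sided, 100000 resamples; the largest p after Benjamini-Hochberg over the 15 pairs was 0.0018 for r and 0.00174 for rho). The largest gap between neighbouring arrays was 11.51% of the range for Crygc and up to 27.5% for Mip, where 5 arrays lay above it, and clustering was not tested. For the 10 pairs without Mip r was 0.776 to 0.971 and rho 0.784 to 0.947. After the group means were removed, r was 0.548 to 0.943 (largest adjusted permutation p = 0.0164) and rho 0.441 to 0.922 (largest adjusted permutation p = 0.06). Without the 2 arrays farthest from the median of 1 gene of each pair, the one listed first at the opening, r was 0.575 to 0.964. The arrays left out thus differed between pairs. Within BeadChip 1 r was 0.824 to 0.985 and within BeadChip 2 0.367 to 0.989. Within 7 STZ + insulin arrays it was 0.525 to 0.986, and within 7 Control arrays 0.45 to 0.994.

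By Pearson's r the closest pair was that of the fibre membrane genes Lim2 and Gja3 (r = 0.971, rho = 0.940), followed by the filament gene Bfsp1 and the gamma crystallin Crygc (r = 0.958, rho = 0.940). By rho it was Lim2 and Bfsp1 (0.947), then Gja3 and Cryba1 (0.945), with 5 arrays of Gja3 at the floor. The loosest by both was Crygc with the aquaporin Mip (r = 0.678, rho = 0.684), a pair with r = 0.87 on BeadChip 1 and 0.367 on BeadChip 2. Within groups its rho of 0.441 did not pass after adjustment (permutation p = 0.06).

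**Figure D4:**
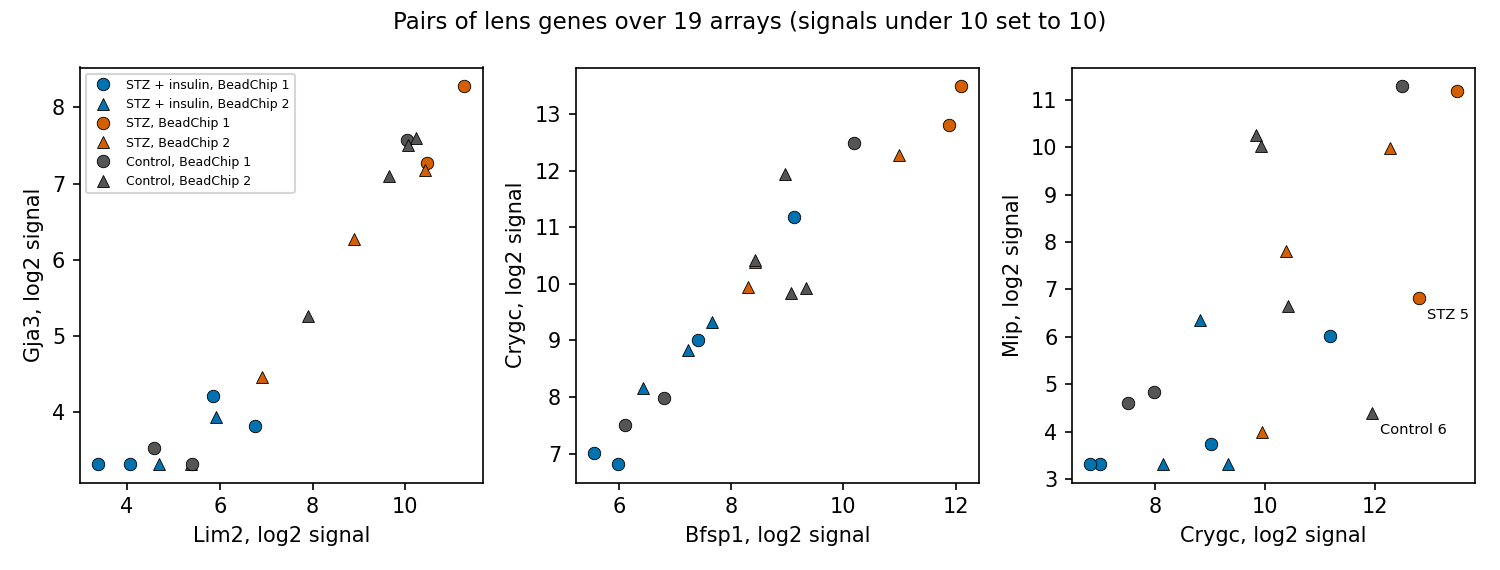
log2 signals of 3 pairs of lens genes over 19 arrays, coloured by group with the BeadChip as the symbol. Lim2 with Gja3 (r = 0.971) and Bfsp1 with Crygc (r = 0.958) follow a line, while STZ replicate 5 and Control replicate 6 stand below the other arrays of high Crygc in the plot of Crygc with Mip (r = 0.678).

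By array, STZ + insulin animals had 0 to 2 of the 6 genes above the median of all 19 arrays. STZ replicates 1, 4 and 5 had 6 of 6, replicate 2 had 5 and replicate 3 had 1. Control replicates 2 and 7 had 6, replicates 4, 5 and 6 had 5, and replicates 1 and 3 had 0. STZ + insulin replicate 3 lay in the middle of the arrays, ranking 10 of 19 for the mean over the genes and 6 for Bfsp1 and Crygc. STZ replicate 4 had the highest mean over the 6 genes, and STZ + insulin replicate 1 the lowest.

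The order of the arrays differed between genes. Control replicate 4 ranked 1 of 19 for Cryba1 and 2 for Gja3 but 10 for Crygc, and Control replicate 5 ranked 3 for Mip but 11 for Crygc. STZ replicate 5 ranked 2 of 19 for Lim2, Bfsp1 and Crygc but 7 for Mip, with 113, and 9 for Cryba1. Control replicate 6 ranked 5 for Crygc, with 3947, but 13 for Mip, with 21. On STZ replicate 5 Gja1, a connexin of lens epithelium and of glia, had a signal of 268, against 3210, 3392, 1050.3 and 3320.5 on STZ replicates 1 to 4. Pitx3, a lens transcription factor, had 8.57 on that array and 16.3 on Control replicate 6.

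Other lens genes were read from lists of lens genes. Of 12 other crystallins 5 had a probe, and all 5 were lower in STZ + insulin than in STZ retinas in limma, where 3.93% of tested probes were. None was called in STZ against Control (3 higher at the unadjusted threshold, where 4.15% of tested probes were). None was called in STZ + insulin against Control either (2 lower at that threshold, where 4.68% were). Without STZ replicates 2 and 3, the 5 were called lower again in STZ + insulin against STZ, and Cryge alone was called higher in STZ against Control. The median difference was -2.92 in STZ + insulin against STZ, 2.05 in STZ against Control and -1.04 in STZ + insulin against Control, beside 0.06, -0.07 and -0.0046 over all tested probes. Cryab, the small heat shock protein alpha B crystallin, was lower by 2.34 in STZ + insulin than in STZ retinas (SE 0.55, adjusted p = 0.015). Cryba2, a beta crystallin, was lower by 2.92 in the same comparison (SE 0.73, adjusted p = 0.0181). The gamma crystallins had log2 differences of -3.37 (Crygb, SE 0.88), -3.42 (Crygd, SE 0.92) and -2.73 (Cryge, SE 0.73), with adjusted p between 0.0226 and 0.0261.

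In STZ against Control retinas the gamma crystallins had larger differences than the alpha and beta ones, at 2.34 for Crygb, 2.84 for Crygd and 2.05 for Cryge, against 0.37 for Cryab and 0.50 for Cryba2. None of the 5 passed the test (adjusted p between 0.0907 for Crygd and 0.74 for Cryab in limma), and the contrast between gamma and other crystallins was not tested. On BeadChip 1 the differences were 4.42 for Crygb, 5.82 for Crygd, 4.47 for Cryge, 1.498 for Cryab and 1.89 for Cryba2, and on BeadChip 2 they were 0.89, 0.77, 0.39, -0.46 and -0.51. Crygd had signals of 1895, 620.4, 245, 10531 and 3913 in STZ arrays, against a lowest, median and highest of 31.8, 247 and 1412 in Control arrays. The STZ and Control ranges overlapped, with Control replicate 6 at the top of its group. The gamma crystallin genes are near-identical copies, so their probes may share signal and their values are uncertain for single copies.

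Of 23 other genes of lens fibres and lens epithelium, 16 had a probe and 13 were tested. In STZ + insulin against STZ retinas 5 of the 13 were lower (Vim, Sparc, Hsf4, Epha2 and Maf), where 3.93% of tested probes were, and none higher. The median was -0.93, and in the other 2 comparisons none was called. At the unadjusted threshold 4 were higher in STZ against Control, where 4.15% of tested probes were. At that threshold 5 were lower in STZ + insulin against Control, where 4.68% were. Without STZ replicates 2 and 3, 6 were lower in STZ + insulin against STZ, with Lgsn added, and Hsf4 was called higher in STZ against Control. Vim, the intermediate filament of lens cells and of Mueller glia, fell by 0.93 (SE 0.22, adjusted p = 0.0152), and Sparc, a matrix protein, by 1.15 (SE 0.21, adjusted p = 0.0039). Epha2, a receptor tyrosine kinase of lens cells, fell by 1.69 (SE 0.31, adjusted p = 0.0044), and Hsf4, a heat shock factor of the lens, by 0.66 (SE 0.15, adjusted p = 0.0137). Epha2 was detected on 1 of 7 STZ + insulin, 5 of 5 STZ and 4 of 7 Control arrays. It was thus tested only because STZ arrays detected it, and its call is a description. Maf, the transcription factor whose recognition core is marked in the windows above, fell by 1.13 (SE 0.34, adjusted p = 0.041), and did not pass with BeadChip as a block (adjusted p = 0.0523). Gja1 had a difference of -2.21 (SE 0.73) and Lgsn, lengsin of lens fibres, one of -2.55 (SE 0.92), and neither passed (adjusted p = 0.0576 and 0.0812).

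Opticin (Optc), a protein secreted into the vitreous by the ciliary epithelium, split the arrays. It had signals of 319 to 531 on STZ replicates 1, 2 and 4 and Control replicates 2, 4, 5 and 7, and at most 23.9 on the other 12 arrays, among them all 7 STZ + insulin arrays. The same 7 arrays had the highest signals of Wfdc1, a gene of the iris and ciliary body list, at 666 to 1007, with 237 or less on all others. They were also the highest for several listed lens genes. Among these were Gja1 (3210 to 4108, at most 1752 on the others), Col4a1 (520 to 849, at most 176) and Pitx3 (43.5 to 82.7, at most 16.3). Other lens genes had another order, such as Crygb, which was highest on STZ replicate 5 (8548). Not every gene of the iris and ciliary body list split the arrays in this way. Dcn was highest on STZ replicate 3 (697), Control replicate 6 (243) and STZ + insulin replicate 6 (163), which were low for Optc. Atp1b1 had a log2 difference of 0.08 in STZ + insulin against STZ (SE 0.07). The split was not tested over the list. STZ replicate 5 and Control replicate 6, which had high Crygc and low Mip, were on the low side for Optc, with 12.9 and 8.71. Optc was in no group detected on every array and was not tested, and Wfdc1 did not pass in STZ + insulin against STZ (log2 difference -1.94, SE 0.64, adjusted p = 0.0561).

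**Figure D5:**
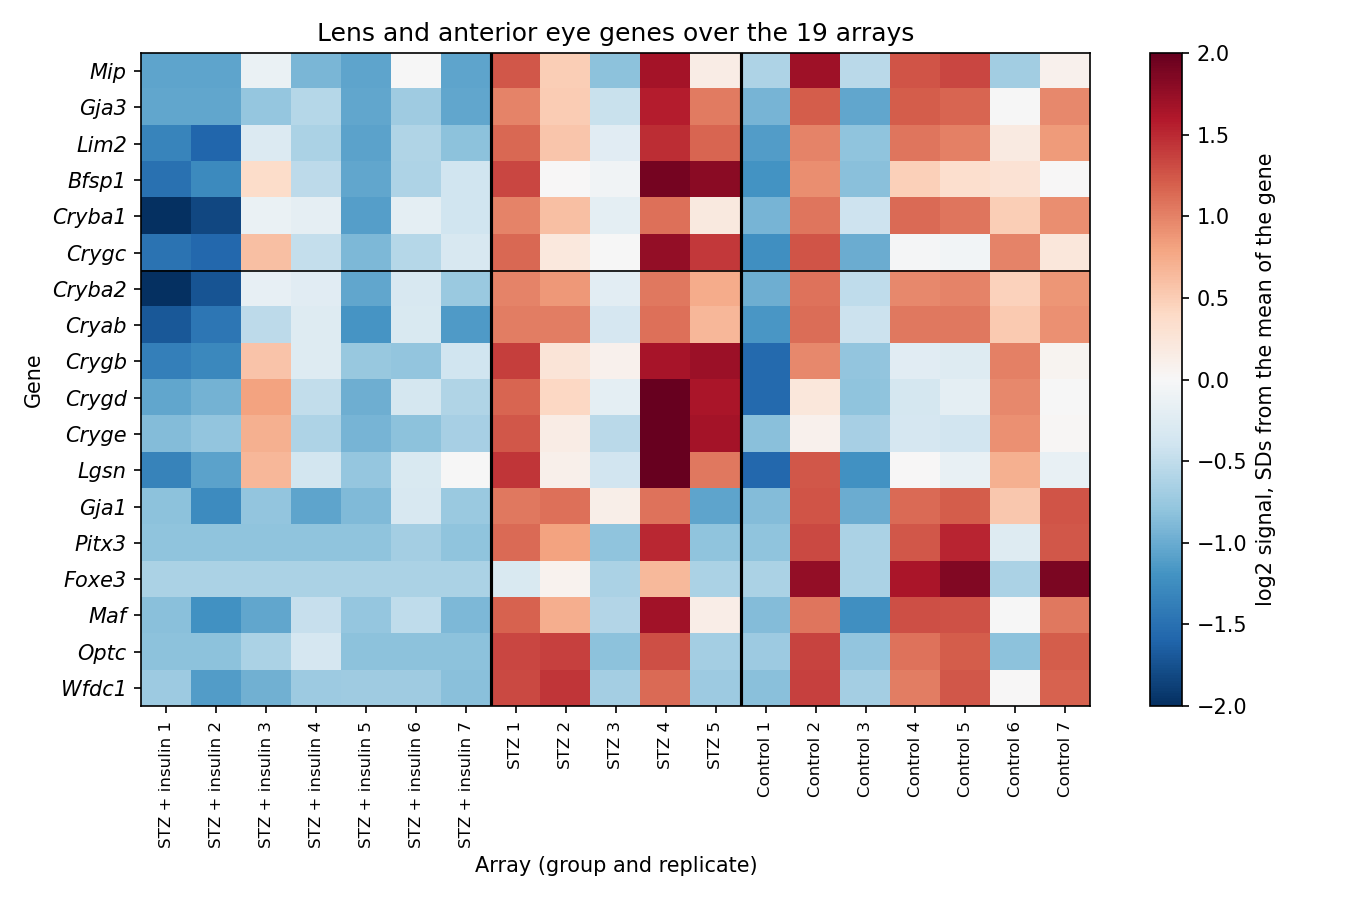
log2 signal of the 6 lens genes (top block) and of 12 other genes of the lens and anterior eye, drawn in SDs from the gene's own mean and limited to ±2, over the arrays of the STZ + insulin, STZ and Control groups (divided by vertical lines). STZ + insulin columns are mostly blue, Control replicates 1 and 3 are blue throughout, and Optc and Wfdc1 are blue on STZ replicate 5 where Crygc is red.

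Lists of other cell types were read beside these values. Of 20 genes of iris, ciliary body and cornea 11 had a probe, and their summed signal was 4577 to 5507 in STZ + insulin, 5446 to 7789 in STZ and 4826 to 7522 in Control arrays. Kera, a marker of corneal stroma, was not detected on any array. Of the 5 tested genes 1, Aldh1a1, was called lower in STZ + insulin than in STZ (log2 difference -0.75, SE 0.19, adjusted p = 0.0177 in limma), where 3.93% of tested probes were. Of 12 genes of Mueller glia 9 had a probe, with a summed signal of 24718 to 32373 in STZ + insulin, 30739 to 39325 in STZ and 25528 to 31500 in Control arrays. Vim alone of 8 tested was called, lower in STZ + insulin than in STZ, where 3.93% of tested probes were. At the unadjusted threshold 3 of the 5 and 3 of the 8 were lower in STZ + insulin than in STZ, where 7.65% of tested probes were. Against Control 3 of the 5 and 1 of the 8 were lower in STZ + insulin, where 4.68% were. In STZ against Control 1 of the 8 was higher, where 4.15% were, and 1 lower, where 10.2% were. Without STZ replicates 2 and 3 Vim was still called and Aldh1a1 was not. The part of these lists in the lens result was not tested.

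For photoreceptors 1 of 17 tested genes, the transcription factor Crx, was called higher in STZ + insulin than in STZ (log2 difference 0.54, SE 0.13, adjusted p = 0.0147 in limma). Over all tested probes 696 of 10718 were called higher there, so 1 of 17 is no result about photoreceptors. None of the 17 was called lower, and their median difference was -0.04. Of 16 tested genes of bipolar, amacrine and ganglion cells and of 7 of the pigment epithelium none was called in any comparison, nor was either of the 2 tested blood genes. The pigment epithelium median was -0.85 in STZ + insulin and -0.23 in STZ, each against Control, and the value in STZ was -0.79 without STZ replicates 2 and 3. At the unadjusted threshold 3 of the 17 photoreceptor, 2 of the 7 pigment epithelium and 1 of the 16 inner retinal genes were lower in STZ against Control, where 10.2% of all tested probes were. In STZ + insulin, 3 photoreceptor genes were higher than in STZ, where 1275 of 10718 tested probes were, and 1 was higher than in Control, where 153 were. Also, 2 pigment epithelium genes were lower in STZ + insulin against Control, where 4.68% were. Among 5 tested heat shock chaperones related to alpha crystallins, Hspb1 fell by 2.16 in STZ + insulin against STZ (SE 0.53, adjusted p = 0.0175) and Hspb6, another small heat shock protein, was higher by 0.26 (SE 0.07, adjusted p = 0.0298). In that comparison 3.93% of tested probes were called lower and 696 of 10718 higher. In STZ against Control retinas Dnajb1 was the only one called, with a log2 difference of -0.40 (SE 0.10, adjusted p = 0.0444), where 204 of 10718 tested probes were called lower. Without STZ replicates 2 and 3 Hspb1 was called, and Hspb6, Dnajb1 and Crx were not.

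Outside the 6 genes, the named genes whose array order was most like their mean z-score over the 19 arrays were, out of 7339, Cryba2 (Spearman's rho 0.975), Tubb6 (0.961), Vim (0.951), Bcar3 (0.947), S100a4 (0.946), S100a6 (0.942), Cd24 (0.937), Cryab (0.932), Smad6 (0.926) and Slc66a3 (0.925). These rho values describe arrays that share groups and BeadChips. Tubb6, a beta tubulin, had lowest, median and highest signals of 38.1, 53.4 and 73.8 in STZ + insulin, 76.6, 182 and 760.5 in STZ, and 41.3, 172 and 279 in Control arrays. Its STZ + insulin arrays did not reach the STZ range, as was the case with 1.52% of tested probes in that direction. Cd24, a surface glycoprotein, had 123, 303 and 503 in STZ + insulin, 523, 1969 and 7476 in STZ, and 144, 2929 and 4592 in Control arrays. A rho over 0.8 was found for 102 genes. At the other end stood Oser1 (rho -0.891), Twnk (-0.884), Slc1a2 (-0.853), Ppip5k1 (-0.826) and Ermp1 (-0.821). Twnk, the mitochondrial DNA helicase, had 371, 454 and 489.5 in STZ + insulin, 193, 292 and 358 in STZ, and 283, 321 and 407 in Control arrays. Its STZ + insulin arrays were above every STZ array, but the share of tested probes separated in that direction is not given here. All these genes were picked by their array order, so such separation partly follows from the choice and is only a description.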

How the data were processed

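The authors summarised bead intensities, subtracted the background and scaled each array to a common mean in GenomeStudio (1.0.6 per the submitters' notes), and deposited these average-normalized intensities with a detection p-value per probe, as well as non-normalized intensities, whose 19 detection columns were not read. A further deposited table repeats the signals of all 22517 probes. GEO's annotation names 13259 probes and leaves 9258 unnamed, and 291 identifiers are repeated. Each gene was represented by its brightest probe.

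The main test was limma 3.58.1 (R 4.3.3) on log2 signals (floor 10), all 3 groups in 1 model without covariates, over probes whose detection p was under 0.05 throughout 1 or more groups, with Benjamini-Hochberg adjustment. Members and gene lists were chosen with earlier results of these data known. The 9 members are named, other lens genes and lists of other cell types are counted with examples, and the 10 most and 5 least similar genes are given.

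Permutations were run in numpy 2.4.6, with correlations, ranks and the adjustment over pairs from scipy 1.17.1. Tables and figures used pandas 2.3.3, numpy and matplotlib 3.10.9. On simulated STZ and Control data (5 sets of 10718 probes) limma recovered 90.3% of log2 changes of 1 and 99.6% of changes of 2, and made 13 false calls per set on average. The changed probes were drawn at random from all tested probes, whose median residual SD was 0.203. For the 6 lens genes the residual SD was 1.26 to 2.46, so these rates do not hold for them. Promoter windows are RefSeq's (GRCr8), nearest to the annotated gene start for members and the first per gene for shares of all windows. Replicate numbers did not pair the arrays. The alternatives were array weights, an intensity trend, the methods' t-test, floors of 1 or 50, detection p limits of 0.01 or 0.4 or none, neqc (offset 16), quantile normalization, median centring, only the compared groups, BeadChip or replicate number as a block, each BeadChip alone, each array left out and, chosen once the values were known, omission of the 2 arrays of lowest weight.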

Additional observations from a re-analysis of the deposited data

How the results depend on the processing

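In STZ + insulin against STZ each gene tested was lower under every alternative run, and Gja3 and Mip were not tested at a detection p under 0.01. The 5 calls became 3 with a floor of 50 or a detection p under 0.4, 1 with no filter, 2 by the methods' t-test after Benjamini-Hochberg and 0 on either BeadChip alone, and 3 to 6 with 1 array left out. The median of -3.22 was -4.77 on BeadChip 1, and -3.71 to -2.79 with 1 array left out, where all 6 passed the unadjusted threshold. In STZ against Control no setting gave a call. The single gene at unadjusted p under 0.05 and fold over 1.2 became 2 after quantile normalization, median centring or array weights, 0 by the methods' t-test, 4 on BeadChip 1, 0 on BeadChip 2, 3 without the 2 arrays of lowest weight, and 0 to 2 with 1 array left out. The median of 1.02 was 3.39 on BeadChip 1, -0.64 on BeadChip 2 and 0.50 to 1.76 with 1 array left out. On BeadChip 2 alone the sign turned for Lim2 (-0.72), Gja3 (-0.90), Cryba1 (-0.71) and Mip (-0.57). With 1 array left out the difference of Cryba1 was -0.28 to 0.39, below 0 without Control replicate 1 or 3 or STZ replicate 1 or 4, and that of Mip -0.28 to 1.51, below 0 without STZ replicate 4. In STZ + insulin against Control the 0 calls became 3 with array weights and stayed 0 with 1 array left out, the 4 genes at the unadjusted threshold became 2 (of 4 tested) with a detection p under 0.01, 0 on BeadChip 1 and 4 to 6 with 1 array left out, and the median of -2.27 was -1.38 on BeadChip 1, -2.86 on BeadChip 2 and -2.67 to -2.05 with 1 array left out. The cause of these changes was not tested.

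Replicate numbers did not pair the arrays. Same-numbered arrays of different groups had correlations of -0.24 to 0.27 (median 0.0099), over 0.1 in 4 of 17 pairs, and arrays of different numbers -0.32 to 0.43. With the replicate number as a block the counts of calls were 4 in STZ + insulin against STZ, 0 in STZ against Control and 0 in STZ + insulin against Control, and the call lost was that of Crygc (adjusted p = 0.0572 in limma). The mean of a gene's probes was not run, since each measured gene has 1 probe. Signals of Lim2, Gja3 and Mip near the background limit what can be read from their STZ + insulin arrays.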
